A study of Mus musculus with 6 samples.

Results

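The interleukin 1 (IL-1) family and the inflammasome were examined in single cells of the mouse proximal pulmonary artery (PA) through 10 genes chosen by symbol from the 53647 genes listed. They were the ligands Il1a, Il1b, Il18 and Il33, the receptor antagonist Il1rn, the receptors Il1r1 and Il1rl1 with their shared accessory chain Il1rap, and the inflammasome genes Nlrp3 and Casp1. Libraries came from proximal PAs of C57BL/6J wild type mice, dissected together with the tissue around them, digested with collagenase and elastase and captured in droplets with a kit that reads the 3′ ends of transcripts. The 2 young libraries came from a male and a female of 3 months. The 4 old libraries came from mice of 20, 24, 27 and 28 months, the first 3 described as male and the last as female. Each library was 1 mouse without a genetic or drug treatment, and another young library was not analysed here. Mice came from the Jackson Laboratory and some old ones from the NIA aging colony. The study asked how cells of the PA wall and the signals between them differ with age.

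IL-1 alpha and IL-1 beta bind the receptor encoded by Il1r1, which needs the accessory protein encoded by Il1rap to signal, and the antagonist encoded by Il1rn occupies the same receptor without a signal. IL-33 is a nuclear cytokine released from damaged stromal and barrier cells, and its receptor, encoded by Il1rl1 and often called ST2, pairs with the same accessory protein. NLRP3 is a sensor in myeloid cells that assembles with caspase 1, the protease that cuts the precursors of IL-1 beta and IL-18 to their active forms. In arteries these cytokines are known for calling leukocytes to the wall and for driving matrix turnover.

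Promoter sequences are shown for Il1b and Nlrp3, whose levels followed nearly the same pattern across cell types, and for Il33, whose pattern was different. They run from 250 bases before to 50 bases after each annotated start in RefSeq on GRCm38.p6, so the last bases belong to the first exon. Capitals mark the NF-kB motif by its name, GAGGAA (the core bound by ETS factors such as PU.1, on either strand) and TATAAA on the strand of the gene. All are written 5′ to 3′ on the strand of the gene, which is the minus strand for Il1b and the plus strand for Nlrp3 and Il33.
Il1b, chr2:129371090-129371389: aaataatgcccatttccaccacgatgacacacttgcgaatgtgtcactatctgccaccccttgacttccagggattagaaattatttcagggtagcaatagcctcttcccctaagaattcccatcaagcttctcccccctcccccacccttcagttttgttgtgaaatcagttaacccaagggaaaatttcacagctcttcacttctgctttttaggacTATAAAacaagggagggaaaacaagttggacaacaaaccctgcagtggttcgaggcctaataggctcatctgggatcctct
Nlrp3, first start, chr11:59541319-59541618: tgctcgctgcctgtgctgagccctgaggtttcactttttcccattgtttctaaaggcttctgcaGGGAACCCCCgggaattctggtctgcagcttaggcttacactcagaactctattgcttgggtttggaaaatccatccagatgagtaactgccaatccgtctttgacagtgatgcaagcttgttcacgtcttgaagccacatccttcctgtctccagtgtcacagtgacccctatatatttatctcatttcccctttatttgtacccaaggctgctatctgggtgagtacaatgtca
Nlrp3, second start, chr11:59542436-59542735: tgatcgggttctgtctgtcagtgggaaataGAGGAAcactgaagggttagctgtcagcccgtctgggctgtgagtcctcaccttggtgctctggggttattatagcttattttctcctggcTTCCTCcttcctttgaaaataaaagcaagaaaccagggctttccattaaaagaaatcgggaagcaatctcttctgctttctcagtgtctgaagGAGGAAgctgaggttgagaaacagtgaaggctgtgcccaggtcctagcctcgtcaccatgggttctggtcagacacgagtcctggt
Il33, first start, chr19:29924863-29925162: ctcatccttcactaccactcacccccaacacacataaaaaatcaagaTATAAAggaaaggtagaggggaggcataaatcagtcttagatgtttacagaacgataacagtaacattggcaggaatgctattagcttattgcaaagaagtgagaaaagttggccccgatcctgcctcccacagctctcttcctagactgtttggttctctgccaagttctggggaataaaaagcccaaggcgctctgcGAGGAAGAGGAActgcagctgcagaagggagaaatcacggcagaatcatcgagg
Il33, second start, chr19:29945540-29945839: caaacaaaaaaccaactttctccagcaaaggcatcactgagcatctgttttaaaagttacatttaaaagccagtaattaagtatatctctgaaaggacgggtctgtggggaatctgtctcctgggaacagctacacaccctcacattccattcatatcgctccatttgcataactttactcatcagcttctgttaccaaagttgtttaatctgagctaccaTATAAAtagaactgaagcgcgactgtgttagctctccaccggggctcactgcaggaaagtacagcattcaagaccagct

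The 10 genes had 16 such starts, and all 10 matched the RefSeq table by symbol. TATAAA began 31 bases before the start of Il1b, 29 bases before the second start of Il33 and 203 bases before its first. Across the 10 genes it lay in 4 starts of 3 genes, Il1a being the other, and in 8.32% of 32851 promoters of the same length. The NF-kB motif lay in 2 starts, the first of Nlrp3, 186 bases upstream, and the second of Il1r1, against 4.51% of all promoters on both strands. GAGGAA lay in 5 starts of 5 genes, with 3 copies in the second start of Nlrp3 and 2 in the first of Il33, against 28.3% of all promoters. The AP-1 letters TGANTCA lay in 2 starts, against 7.81%, and the C/EBP letters TTNNGNAA in 12 starts of 7 genes, against 40.7%. In Il1a a TTNNGNAA match overlapped the GAGGAA match. Promoters of chromosome 18 were left out of these shares, and a match is a string of letters and not a measured binding site.

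In all, 15410 cells with at least 500 unique molecular identifiers (UMIs, tags that count single RNA molecules), at least 300 genes and at most 20% mitochondrial UMIs were kept, 929 to 4027 a library. Total depth ran from 6355125 to 50436562 UMIs a library, and kept cells held a median of 841 and 816 UMIs in the young male and female and 2160, 799, 8118.5 and 5431 UMIs at 20, 24, 27 and 28 months. Both young libraries and the library of 24 months shared 130 to 213 cell barcodes with each other, where chance gives 0.364 to 1.10, and other pairs shared at most 4. The library of 20 months, from a male by the study's text, held 2411 UMIs of Xist in barcodes that passed the filters. Of the Y-linked genes it held 2 UMIs of Eif2s3y, 15 of Uty and 209 of Ddx3y, so no value was drawn from its sex. The young male and the library of 24 months held 150 and 164 UMIs of Xist beside 109 and 207 of Eif2s3y. Cells were named from clusters as fibroblasts (FBs), smooth muscle cells (SMCs), endothelial cells (ECs), perivascular macrophages (MΦs) and 10 further types with at least 10 cells in a library, each name meaning cells that resemble the type. The old libraries of 27 and 28 months filled other clusters than the remaining ones, with 93.8% and 92.1% of their FBs in cluster 1 while 91.1% to 100% of FBs elsewhere lay in cluster 10. Of the SMCs of the young male, the young female and 20 months, 95.8%, 97.1% and 96.6% lay in cluster 13. Clusters 0 and 4 led for SMCs at 27 and 28 months. Depth relative to the library median was 0.390 in cluster 13 and 1.22 and 1.19 in clusters 0 and 4. The class called B cells joins B cells and a cluster named from plasma cell markers, cluster 16, which held 100% and 97.4% of it at 27 and 28 months, while clusters 2 and 5, of B cells, led in the other libraries. Markers of FBs, SMCs, ECs and B cells were all above 0 in the cells so named in every library used, and 1 of 8 perivascular MΦ markers was at 0 in the young female. A level above 0 is a weak check of a name. The share of SMC markers raised was 0.625 in cluster 13 and 1 and 0.875 in clusters 0 and 4. No SMC marker was among the 10 leading genes of clusters 13 and 4, and those of cluster 13 included mt-Ts2, mt-Th and mt-Ta. Perivascular MΦs lay in unlike subclusters by library. A single subcluster held 77.8% of them in the young female and 91.1% at 24 months. It raised a share of 0.5 of the perivascular MΦ markers, against 0.875 or 1 in those that led elsewhere. The name is thus weakest in these libraries. A different subcluster led in each other library, with 93.0% in the young male and 99.1%, 93.4% and 62.5% at 20, 27 and 28 months. Another subcluster of 126 cells, 122 of them from the young male, raised a share of 0.875 of the perivascular MΦ markers. It kept no name and was left out, because its 10 leading genes held more markers of another type. Levels in perivascular MΦs thus compare unlike subclusters, and the part of this and of the cells left out in their differences was not tested. Monocytes and dendritic cells also lay in unlike subclusters. The same subcluster led at 20 and 27 months, with 60.0% and 100% of 10 and 12 cells. A different subcluster led in each of the young male, 24 and 28 months, with 69.5%, 62.9% and 83.3%. The part of this in the levels of that type was not tested.

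Levels are given in CPM (counts of a gene scaled to a fixed total, the same for each library) of the UMIs summed over the cells of a type in a library, in the order young male, young female, 20, 24, 27 and 28 months, and a type enters with at least 10 cells. They are a description without a test, because the types were clustered from the same cells, although the 10 genes took no part in the clustering. Library sums cannot tell fewer expressing cells from less RNA per cell.

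Il1b was highest in neutrophils, which reached 10 cells in 2 old libraries only, at 4839 CPM at 24 months (75 UMIs) and 4395 CPM at 28 months (1244 UMIs). Mast cells and basophils followed at 1488 CPM at 27 months and 380 CPM at 28 months, below both neutrophil values. Monocytes and dendritic cells stood at 683 CPM in the young male and at 451, 872, 476 and 189 CPM in old libraries, a range that overlapped that of mast cells. The values at 20 and 27 months rest on 10 and 12 cells. Perivascular MΦs stood at 488 and 109 CPM in young libraries and at 335, 240, 25.3 and 1.75 CPM in old ones. Old perivascular MΦs thus ran from 97 Il1b UMIs at 20 months to 4 at 28 months, and the groups overlapped. No Il1b UMI was found in 414 T cells, which allows a share of up to 0.725% of cells with a UMI.

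With each cell thinned to 500 UMIs, 75.0% of neutrophils held an Il1b UMI (95% exact interval 64.9% to 83.4%, 90.2% before thinning). The share was 24.9% (21.2% to 29.0%) in monocytes and dendritic cells, 40.4% before thinning, and 6.47% (5.03% to 8.17%) in perivascular MΦs, 12.9% before thinning. In ECs, which should lack the gene, it was 0 of 2116 cells, 0.0945% before thinning, at a median depth of 1998.5 UMIs against 3163 UMIs in perivascular MΦs and 2713.5 UMIs in neutrophils. These intervals cover counting error only. Barcodes of at most 100 UMIs, a measure of free RNA, held Il1b at 4.46 to 31.3 CPM.

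Il1a, the other ligand of the same receptor, was sparse, with 181 UMIs in all kept cells, part of them in unnamed cells. Perivascular MΦs gave 36.5% of the 181, at 33.2 and 109 CPM in young libraries and 65.5, 107, 15.2 and 0 CPM in old ones. The 0 at 28 months came from 363 cells, while the 109 CPM of the young female rested on 5 UMIs in 45 cells. After thinning, 0.995% of perivascular MΦs held an Il1a UMI (0.478% to 1.82%, 3.88% before thinning) and 0 of 1377 airway epithelial cells did, which allows up to 0.218%. Monocytes and dendritic cells ranged from 0 to 123 CPM and neutrophils from 0 to 194 CPM, so no order among these 3 types can be read for Il1a.

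Among named types, Il1rn, the antagonist, was found mainly in the same myeloid ones. Of its 264 UMIs, perivascular MΦs gave 41.7% and monocytes and dendritic cells 17.8%, and part of the rest lay in unnamed cells. Perivascular MΦs held 128 CPM in the young male and 0 in the young female, and 224, 0, 8.44 and 3.50 CPM in old libraries. The library of 20 months alone gave 65 of the 110 Il1rn UMIs of perivascular MΦs. Monocytes and dendritic cells ran from 0 to 125 CPM, with the 125 CPM at 24 months from 32 UMIs. Of 1789 FBs none held an Il1rn UMI, which allows up to 0.168%, and 2.09% of perivascular MΦs did after thinning (1.30% to 3.18%, 5.77% before).

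**Figure D1:**
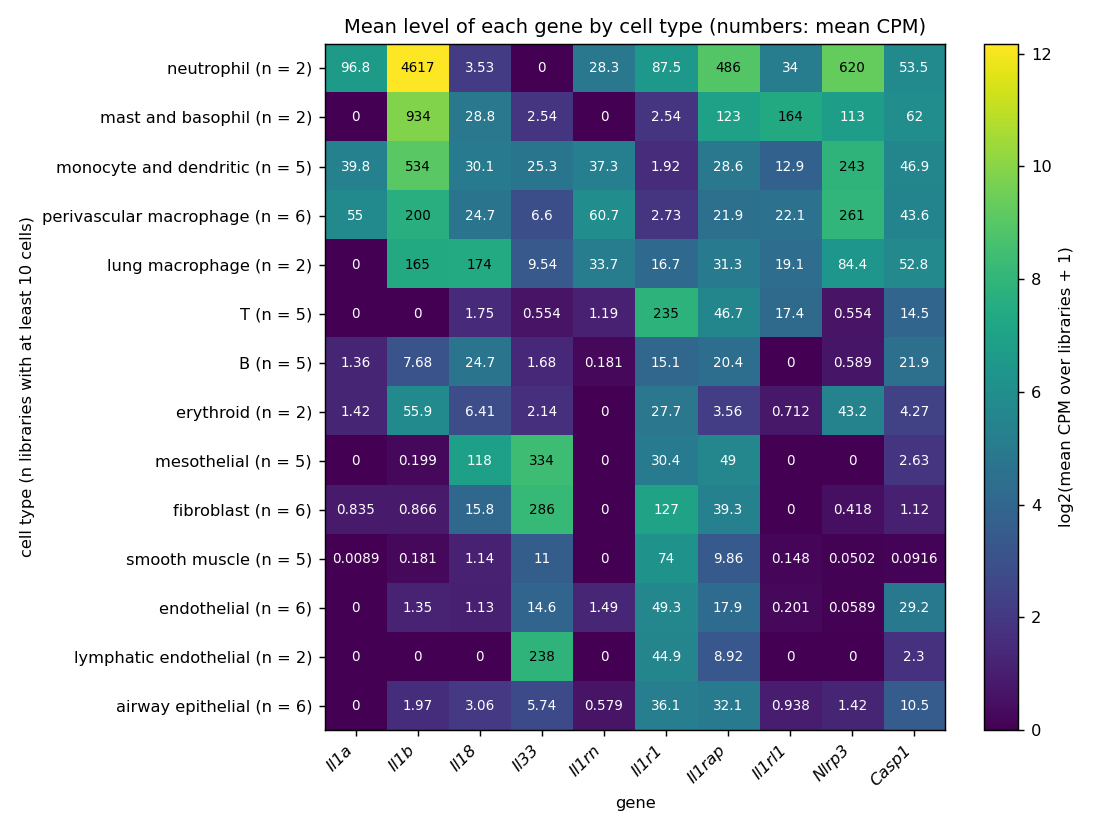
Heatmap of the mean level over libraries of each of the 10 genes in 14 cell types, coloured by log2 of mean CPM plus 1 and printed as mean CPM, with genes as columns and types as rows (n, libraries with at least 10 cells). Il1b and Nlrp3 peak in neutrophils and stay high in mast cells, monocytes and perivascular MΦs, while Il33 is high in mesothelial cells, FBs and lymphatic ECs.

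Il33 had the opposite home, in stromal and lining cells. Mesothelial cells, the lining of the pleura and pericardium, stood at 682 CPM in the young male and at 145, 359, 202 and 282 CPM in old libraries. FBs stood at 227 and 143 CPM in young libraries and at 210, 431, 326 and 379 CPM in old ones. Lymphatic ECs stood at 234 CPM at 27 months and 242 CPM at 28 months, with both values above the highest Il33 level of monocytes and dendritic cells, the next type in order, at 108 CPM. Mesothelial cells, FBs and lymphatic ECs overlapped in range. Blood ECs stayed between 5.46 and 22.8 CPM, while free RNA held 21.5 to 55.7 CPM.

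After thinning, Il33 was found in 19.9% of mesothelial cells (17.1% to 22.8%, 48.8% before thinning), 14.5% of FBs (12.9% to 16.2%, 55.6% before) and 9.90% of lymphatic ECs (4.85% to 17.5%, 55.4% before). In T cells the share was 0 of 414, and 0.242% before thinning, at a median of 762.5 UMIs against 4644 UMIs in FBs. FBs gave 71.8% and mesothelial cells 18.6% of the 4429 Il33 UMIs of all kept cells, and the FB share within a library ran from 4.72% to 81.6%. The lowest FB share was that of the young male, in which mesothelial cells gave 84.0%.

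Il18 was the most evenly spread ligand. Mesothelial cells held 59.7 CPM in the young male and 98.6, 127, 144 and 161 CPM in old libraries, each old value above the 1 young value. The pooled ratio of old to young was 2.46 (95% counting interval 1.67 to 3.76), which rests on 1 young library and was not tested between libraries. The share of all genes with such an order in mesothelial cells was not computed. In the libraries at 144 and 161 CPM these cells lay mainly in another cluster than in the young male. The part of this make-up in the Il18 values was not tested. Lung MΦs ranged from 28.6 to 318 CPM on 6 UMIs each. Perivascular MΦs held 12.6 to 49.0 CPM and B cells 0 to 58.7 CPM, and these ranges overlapped. The 58.7 CPM was that of 28 months, with its 124 UMIs all in the plasma cell cluster, which held 57.4 CPM of Il18 over all libraries against 22.8 CPM in cluster 2. After thinning, 4.47% of mesothelial cells (3.15% to 6.13%, 24.3% before) and 0.142% of ECs (0.567% before) held an Il18 UMI.

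**Figure D2:**
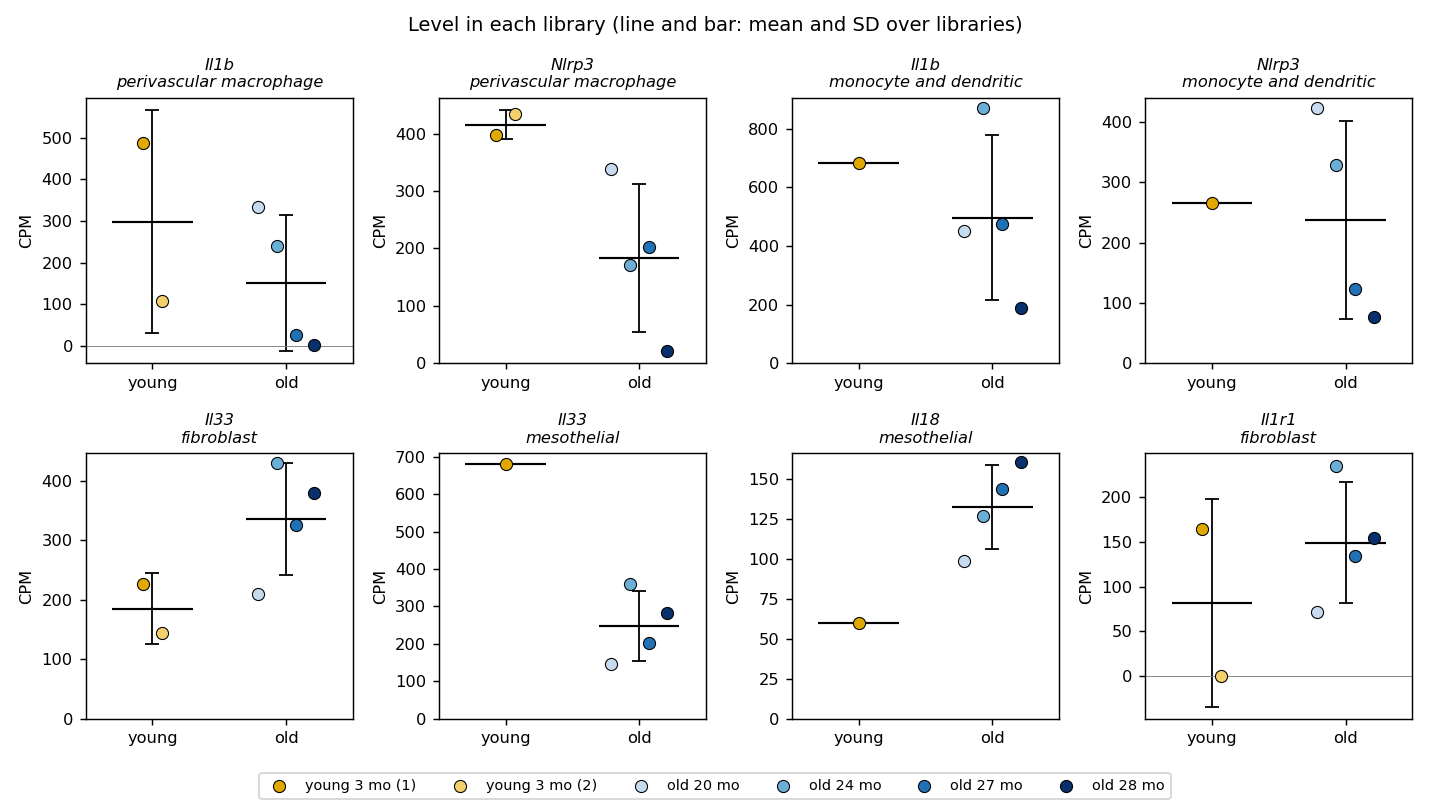
Levels in CPM of Il1b, Nlrp3, Il33, Il18 and Il1r1 in young and old libraries of 4 cell types, with 1 point a library and the mean and SD as line and bar. Il1b in perivascular MΦs lies between 1.75 and 488 CPM with both groups overlapping, and Il33 in FBs between 143 and 431 CPM.

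Il1r1, the signalling receptor, was broad among stromal cells. Among myeloid types its mean was 87.5 CPM in neutrophils, from 15 UMIs, 16.7 CPM in lung MΦs, and at most 2.73 CPM in perivascular MΦs, mast cells and basophils, and monocytes and dendritic cells. FBs held 164 CPM and 0 in young libraries and 71.8, 235, 134 and 155 CPM in old ones. The 0 of the young female came from 29 cells. SMCs held 0 and 85.8 CPM in young libraries, the second from 2 UMIs, and 39.1, 137 and 108 CPM at 20, 27 and 28 months, with the library of 24 months left out at 3 cells. ECs held 0 and 22.8 CPM in young libraries and 23.5, 116, 62.8 and 70.6 CPM in old ones. Perivascular MΦs held 8 Il1r1 UMIs in all, at most 13.8 CPM.

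SMCs gave 62.9% of the 5984 Il1r1 UMIs pooled over libraries, but a mean of 23.4% when each library counted equally, next to 23.2% for FBs. The young libraries held 58 SMCs together and the library of 27 months 2403. After thinning, 6.76% of FBs (5.64% to 8.03%, 34.2% before) and 5.22% of SMCs (4.52% to 6.01%, 52.3% before) held an Il1r1 UMI, against 0.199% of perivascular MΦs (0.796% before). The Il1r1 ranges of FBs and SMCs over libraries overlapped.

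T cells were at 23.4 CPM of Il1r1 in the young male and 0, 59.7, 957 and 133 CPM in old libraries. The 957 CPM at 27 months came from 145 UMIs, of which 142 lay in 20 cells of 1 subcluster of 36 cells. That subcluster held 239 UMIs of Il23r, 178 of Trdc, a constant chain of the gamma delta T cell receptor, and 6 of Il17a. Of its cells 80.6% (64.0% to 91.8%) held an Il1r1 UMI, 38.9% after thinning, and Il18r1, the receptor chain for IL-18, was at 202 UMIs. In the 6 other T subclusters Il1r1 had 0 to 11 UMIs. Both the subcluster and its genes were singled out after their values were seen.

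**Figure D3:**
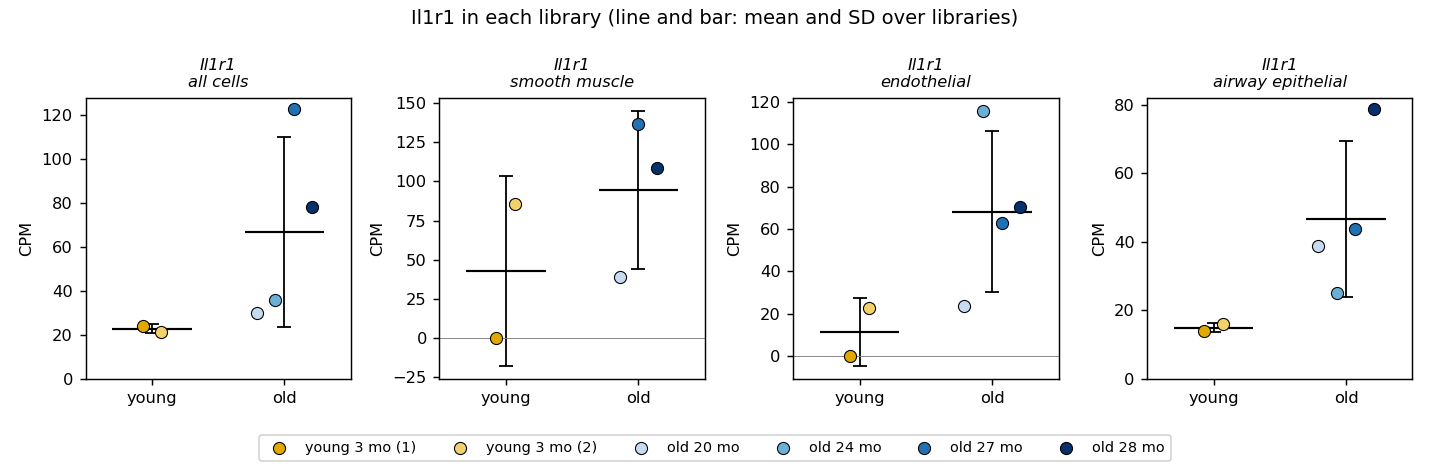
Il1r1 level in CPM in young and old libraries for all kept cells, SMCs, ECs and airway epithelial cells, with 1 point a library and the mean and SD as line and bar. All old points lie above the young points except in SMCs, where the young female, at 85.8 CPM, lies above the library of 20 months, at 39.1 CPM.

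Il1rap, the accessory chain, was detected more widely. Neutrophils stood highest at 516 and 456 CPM, apart from mast cells and basophils at 155 and 91.3 CPM, which in turn lay apart from mesothelial cells at 36.3 to 62.3 CPM. Airway epithelial cells held 22.0 and 40.6 CPM in young libraries and 25.9, 28.6, 27.8 and 47.3 CPM in old ones, an overlap. Among neutrophils 19.6% held an Il1rap UMI after thinning (12.03% to 29.1%, 54.3% before) and 0 of 199 erythroid cells did (2.01% before).

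Il1rl1, the IL-33 receptor, was not detected in the cells richest in Il33. FBs, mesothelial cells and lymphatic ECs held no Il1rl1 UMI, and in 1789 FBs this allows a share of up to 0.168%. Mast cells and basophils stood highest at 167 CPM at 27 months (14 UMIs) and 162 CPM at 28 months (32 UMIs), apart from neutrophils, the next in order, at 64.5 and 3.53 CPM. Perivascular MΦs held 28.4 and 21.7 CPM in young libraries and 37.9, 6.32, 22.8 and 15.3 CPM in old ones, from 81 UMIs, or 22.8% of the 355 Il1rl1 UMIs of all cells. After thinning 11.1% of mast cells and basophils (3.71% to 24.1%, 42.2% before) and 1.19% of perivascular MΦs (0.618% to 2.08%, 6.57% before) held one.

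An unnamed lymphoid subcluster of 18 cells held 93 Il1rl1 UMIs, more than all perivascular MΦs, at 1292 CPM. Of its cells 94.4% (72.7% to 99.9%) held an Il1rl1 UMI, and 33.3% after thinning. The same cells held 93 UMIs of Gata3, a factor of type 2 lymphocytes, 29 of Areg, the growth factor amphiregulin, 21 of Arg1, 3 of Il5 and 2 of Il13. It kept no name because its 10 leading genes held more markers of another type than of T cells, and it was singled out after its values were seen.

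Nlrp3, the inflammasome sensor, was shared among myeloid types. Neutrophils held 968 CPM at 24 months (15 UMIs) and 272 CPM at 28 months (77 UMIs). Perivascular MΦs held 398 and 434 CPM in young libraries and 338, 171, 203 and 21.9 CPM in old ones, and every old value lay below both young values. Monocytes and dendritic cells held 266 CPM in the young male and 423, 328, 123 and 76.5 CPM in old libraries. Perivascular MΦs gave 51.4% of the 1009 Nlrp3 UMIs and monocytes and dendritic cells 20.5%. After thinning, 14.1% of neutrophils (7.74% to 23.0%, 51.1% before), 11.96% of monocytes and dendritic cells (9.21% to 15.2%, 29.5% before) and 9.15% of perivascular MΦs (7.44% to 11.1%, 28.4% before) held a UMI, while 0 of 806 mesothelial cells did.

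Casp1 was low and broad, with 781 UMIs in all cells. Perivascular MΦs held 9.48 and 65.1 CPM in young libraries and 37.9, 31.6, 72.6 and 45.1 CPM in old ones. ECs held 34.7 CPM and 0 in young libraries and 16.3, 61.8, 34.6 and 27.9 CPM in old ones, and perivascular MΦs and ECs overlapped. SMCs had 5 Casp1 UMIs in 3561 cells and FBs 20. The share of cells after thinning was 2.89% in monocytes and dendritic cells (1.59% to 4.796%, 12.4% before), 1.37% in ECs (0.920% to 1.96%, 6.43% before) and 0.0559% in FBs (1.12% before).

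**Figure D4:**
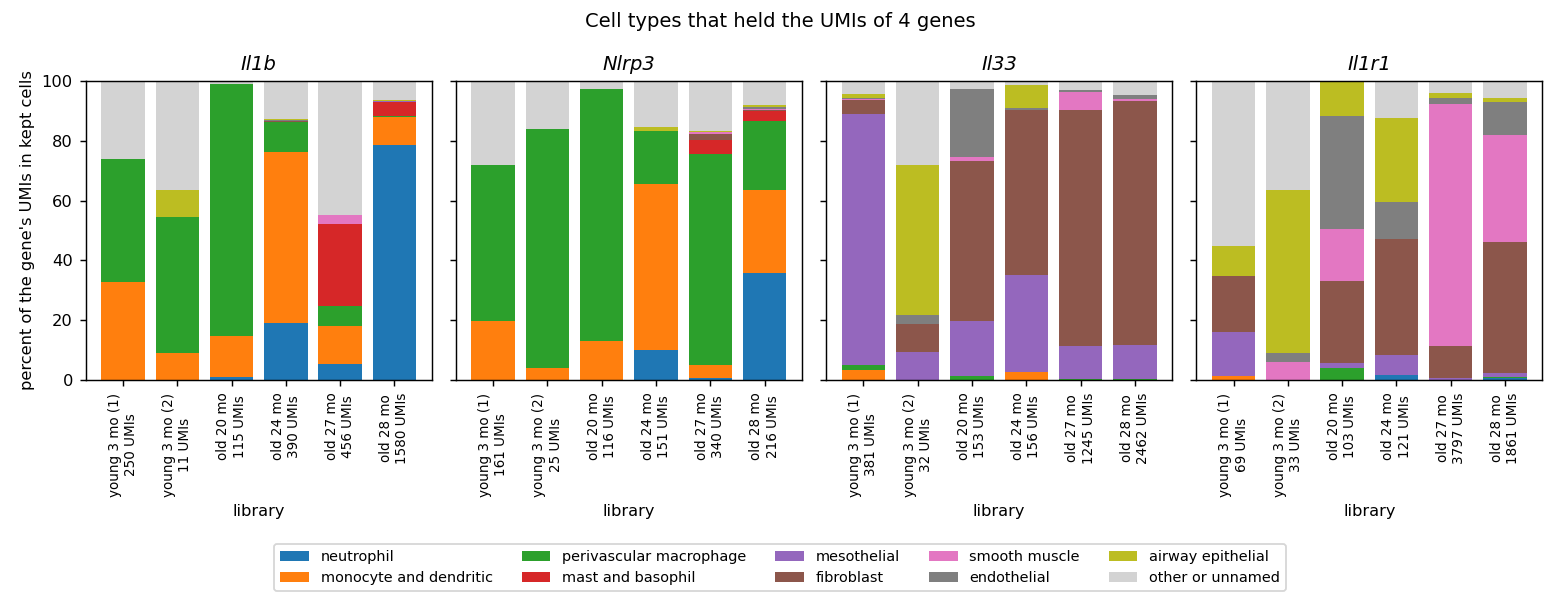
Share, in percent, of the UMIs of Il1b, Nlrp3, Il33 and Il1r1 in the kept cells of each library that came from each cell type, as stacked bars from 0 to 100% with the number of UMIs under each bar. FBs give 4.72% of Il33 in the young male, where mesothelial cells give 84.0%, and SMCs give at most 81.0% of Il1r1, at 27 months.

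Across the 14 types, Il1b and Nlrp3 followed nearly the same pattern, with a Pearson r of 0.969 between their log2 mean levels. Among 13769 genes the genes closer to Il1b than Nlrp3 were F630028O10Rik at 0.986 and Cd300a, an inhibitory receptor of myeloid cells, at 0.970. The genes most like Nlrp3 were Hk3, the hexokinase of leukocytes, at 0.984, Igsf6 at 0.983 and Gm40645 at 0.976. For Il33 they were Pde10a at 0.919, Il17rd at 0.897 and Lrrn4cl at 0.894. For Il1rl1 the closest was Aqp9 at 0.941, for Il1rn Clec4e at 0.946, for Il1a Slfn4 at 0.924 and for Casp1 Rps6ka1 at 0.900. Il1rap with Pag1 at 0.891, Il18 with Xbp1 at 0.875 and Il1r1 with Camk2n1 at 0.872 had the weakest closest matches. The points share libraries and differ in depth, 5 of the types entered with 2 libraries each, and the values are a description.

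Old and young libraries were then compared by edgeR's quasi-likelihood test, fitted over all genes of a type with Benjamini-Hochberg adjustment, in the 6 types with enough cells. The library of 24 months was left out of SMCs and that of 20 months out of B cells, for under 10 cells. In B cells none of the 10 genes passed the filter on low values. In the other 5 types 8 of the 10 genes entered, as 15 pairs of gene and type. None was called at an adjusted p under 0.05, by edgeR or by DESeq2, and 1 pair had an unadjusted p under 0.05 by each tool. Il1rn and Il18 passed no filter. Called genes made up 0.044% of all genes tested in FBs and 0% in B cells, airway cells, ECs, perivascular MΦs and SMCs, while 6.35% of genes in B cells, 6.18% in airway cells, 5.59% in ECs, 6.56% in FBs, 5.1% in perivascular MΦs and 8.06% in SMCs had an unadjusted p under 0.05. A single pair among 15 is therefore near the background. The log2 fold change was above 0 in 9 pairs and below 0 in 6. All old libraries lay above all young ones in 3 pairs, below them in 2, and the groups overlapped in 10. Over all genes, old libraries lay above in 19.6% of genes in B cells, 9.1% in airway cells, 12.6% in ECs, 17.4% in FBs, 9.56% in perivascular MΦs and 22.4% in SMCs. They lay below in 13.1%, 6.61%, 7.71%, 7.34%, 6.24% and 11.7% of genes in the same types.

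That pair was Il1r1 in airway epithelial cells. It stood at 14.03 and 15.9 CPM in young libraries (7 and 18 UMIs) and at 38.9, 25.0, 43.9 and 78.8 CPM in old ones (12, 34, 60 and 25 UMIs), with every old library above both young ones, as for 9.1% of all genes in these cells. The log2 fold change was 1.34 (SE 0.44, adjusted p = 0.767, unadjusted p = 0.0105 by edgeR), and the pooled ratio 2.55 (counting interval 1.65 to 4.08). Free RNA held Il1r1 at 20.9 to 41.9 CPM, a range that takes in these cells at 20 and 24 months. Within 1 airway cluster the young libraries held 24.1 and 29.2 CPM against 70.3, 40.5 and 109 CPM at 20, 24 and 27 months, and within another 13.4 and 12.2 CPM against 27.7, 12.9 and 25.3 CPM, where the library of 24 months lay between the young ones. A further cluster held 0 and 17.8 CPM in young and 0, 41.1, 38.9 and 82.9 CPM in old libraries, so there the groups overlapped. Young airway cells led in the cluster with the lowest pooled Il1r1 (17.1 CPM), while the libraries of 20 and 24 months led in that at 58.7 CPM and those of 27 and 28 months in that at 37.8 CPM, and the part of this make-up in the difference was not tested.

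Il1r1 in ECs also had every old library above both young ones, against 12.6% of all genes there, but the young ECs held 1 UMI in 146 cells. Its log2 fold change was 2.58 (SE 1.30, adjusted p = 0.879 by edgeR), and the counting interval of the pooled ratio of 5.74 ran from 1.02 to 227. In SMCs the log2 fold change was 1.45 (SE 1.06, adjusted p = 0.708 by edgeR) on 2 young UMIs, and in FBs 0.41 (SE 0.73, adjusted p = 0.965 by edgeR), where leaving out the young female turned it to -0.26. Summed over all kept cells, Il1r1 was 22.8 ± 1.95 CPM in young and 66.7 ± 43.0 CPM in old libraries (SD, n = 2 and 4), with every old library above both young ones. The two-sided exact permutation p of 0.133 is the smallest this design allows, and the adjusted p over the 10 genes was 0.833. The share of all genes with such an order in summed cells was not computed. The libraries of 27 and 28 months, which held 122.6 and 78.2 CPM, also held 2403 and 951 of the 3561 SMCs, and the part of cell make-up in this difference was not tested.

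Nlrp3 in perivascular MΦs had a log2 fold change of -1.14 (SE 0.87, adjusted p = 0.840 by edgeR), with every old library below both young ones, against 6.24% of all genes in these cells. The pooled ratio of old to young was 0.262 (counting interval 0.211 to 0.328), in which libraries with more UMIs weigh more. Its interval covers counting error only and not the spread between mice. With each library counted equally, the means were 416 CPM in young and 183 CPM in old libraries. Leaving out each library in turn gave log2 fold changes from -1.67 to -0.70. Within the subcluster that led in the young female and at 24 months, Nlrp3 was at 747 CPM in 14 cells of the young male, 460 CPM in 35 cells of the young female and 170 CPM in 92 cells at 24 months. In that subcluster a share of 0.5 of the perivascular MΦ markers was raised, and none was among its 10 leading genes. Those included Alox15, Prg4 and Serpinb2, named after their values were seen. Other subclusters led in the other libraries, and Nlrp3 itself was among the 10 leading genes of that which led in the young male. A further subcluster, with 122 of its 126 cells from the young male, kept no name and was left out. The part of this make-up in the Nlrp3 values was not tested. The summed level of the 15 immediate early genes of dissociation, which tissue digestion is known to induce, was 13874.5 and 19305.5 CPM in young and 16891.7, 12055.3, 13056.9 and 3415.6 CPM in old perivascular MΦs, lowest in the library with the lowest Nlrp3, and none of the 15 was at 0 there. The part of that response in the Nlrp3 values was not tested.

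Il1b in the same MΦs had a log2 fold change of -0.97 (SE 1.56, adjusted p = 0.921 by edgeR), and without the young male it was 0.61. Il1a was at -0.47 (SE 1.86), which turned to 0.29 without the young female and 0.11 without the library of 28 months. Casp1 was at 0.91 (SE 0.82, adjusted p = 0.851 by edgeR) on 5 young UMIs, and at -0.44 without the young male. Il1rl1 was at -0.40 (SE 0.79). None of these 4 genes passed the test in perivascular MΦs.

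Il33 in FBs had a log2 fold change of 0.83 (SE 0.52, adjusted p = 0.793 by edgeR), and the young male at 227 CPM lay above the library of 20 months at 210 CPM. The pooled ratio was 1.69 (counting interval 1.11 to 2.74), on 21 young UMIs. In mesothelial cells, not fitted for want of a further young library, every old library lay below the young male, with a pooled ratio of 0.362 (counting interval 0.314 to 0.418). This interval covers counting error only, and the share of all genes with such an order there was not computed. Cluster 9 held 99.3% of mesothelial cells in the young male and 100% and 96.4% at 20 and 24 months. In the remaining old libraries cluster 19 held 94.1% and 85.3% of them, and the part of this make-up in the Il33 values was not tested. Among the libraries that share barcodes, the one of 24 months was at 431 CPM against a young mean of 185 CPM, both in FBs mainly of cluster 10. Within that cluster Il33 was at 210 and 143 CPM in young libraries and 210, 457, 186 and 338 CPM in old ones, again an overlap. In all kept cells Il33 was 77.1 ± 79.7 CPM in young (SD, n = 2) and 58.7 ± 30.003 CPM in old libraries (SD, n = 4), and without the young male, whose mesothelial cells gave most of its Il33, the difference turned from -18.4 to 37.9 CPM.

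Il1rap in FBs lay lower in all old libraries than in the young pair, at 37.9 and 95.6 CPM in young (3 and 2 UMIs) and 35.9, 15.02, 27.8 and 23.8 CPM in old ones, against 7.34% of all genes in FBs. Free RNA also held more Il1rap in both young libraries, at 41.9 and 32.2 CPM, than in old ones, at 18.3, 19.5, 6.56 and 9.57 CPM. Within each group its order differed from that of FBs. The young male's free RNA lay above its FBs, and the part of free RNA in the FB values was not tested. The log2 fold change was -0.98 (SE 0.73, adjusted p = 0.822 by edgeR), and the counting interval of the pooled ratio of 0.511 ran from 0.216 to 1.59. In SMCs all old libraries lay above the young pair, against 22.4% of all genes there, but the young SMCs held 0 Il1rap UMIs, and at a floor of 3 UMIs no ratio above 1 could be bounded. In airway cells (-0.20, SE 0.38), ECs (1.14, SE 1.31, on 1 young UMI) and perivascular MΦs (0.04, SE 1.23) the Il1rap libraries overlapped.

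Signals from sending to receiving types were set out as the mean log expression of a ligand in the sender times that of a receptor paired with it in the receiver. The log was taken cell by cell, so a product also depends on the UMIs per cell, which differed between libraries. The part of depth in the order of libraries was not tested. There were 216 combinations among the 6 fitted types, which leave out neutrophils, mast cells and monocytes as senders. Among these the highest mean product was Il1b from perivascular MΦs to Il1r1 of FBs, at 0.233 and 0 in young libraries and 0.214, 0.205, 0.0414 and 0.00560 in old ones. Old libraries exceeded young ones by 0.000297 in the mean, less than the gap between the young libraries. Il33 from FBs to Il1rl1 of perivascular MΦs was 0.0245 and 0.0142 in young and 0.0831, 0.0107, 0.129 and 0.0956 in old libraries, with 3 of 4 old libraries above both young ones (two-sided exact permutation p = 0.4). The product of Il18 in perivascular MΦs and Il1rl2, known as the IL-36 receptor, in airway cells was higher in 4 of 4 old libraries. This product was picked after its values were seen, and the share of the 216 with such an order was not computed. It was at 0.00753, 0.00631, 0.0493 and 0.0365 against 0.00417 and 0.00552. Its exact permutation p of 0.133 is the smallest possible, and every one of the 216 adjusted p-values was 1. The paper names this pair among signals raised with age from perivascular MΦs to FBs and SMCs, and airway cells are not among those receivers. To FBs the product was 0.00957 and 0 in young and 0.00247, 0.0121, 0.0292 and 0.0471 in old libraries. There 3 of 4 old libraries lay above both young ones (two-sided exact permutation p = 0.267). To SMCs it was 0 and 0 in young libraries and 0, 0.000463 and 0 in the old libraries with enough SMCs. Because Il18r1 encodes the receptor chain for IL-18, the product with Il1rl2 is not read here as an IL-18 signal.

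Other genes of the family were taken from lists chosen by function, and those described here for their levels were chosen after their values were seen. Il1r2, the decoy receptor without a signal, was highest in neutrophils at a mean of 1001 CPM and in mast cells and basophils at 225 CPM, types that also led for Il1b and Il1rap. Il1f9, which encodes IL-36 gamma, was at 274 CPM in neutrophils and had 2 UMIs in other types. Il18r1 was highest in T cells at 368 CPM, followed by mesothelial cells at 112 CPM. Il1rapl1, a relative known from neurons, reached 1041 CPM in mesothelial cells. Pycard, the adaptor between NLRP3 and caspase 1, was highest in perivascular MΦs at 393 CPM, and Gsdmd, the pore former cut by caspase 1, stayed at a mean of at most 44.1 CPM in any type.

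Between old and young, no gene of the other ligands and receptors (13 listed, at most 4 tested in a type), of receptor signalling (21 listed, at most 17 tested), of other inflammasome and pyroptosis genes (23 listed, at most 14 tested) or of type 2 effectors known to follow IL-33 (12 listed, at most 3 tested) was called by edgeR. Myd88, the adaptor of these receptors, was listed at 0 in every type and could not be tested. In perivascular MΦs the 14 inflammasome genes tested had a median log2 fold change of 0.17 beside 0.17 for all genes, and the 9 tested of 18 genes known to be induced by interleukin 1 had a median of -0.82, with 8 of 9 below 0 and none called. Their summed level was 10718.7 and 20282.7 CPM in young and 10284, 19261.9, 2698.7 and 545.9 CPM in old perivascular MΦs, so the low values were those of 27 and 28 months. In FBs the same list had a median of 0.03 beside 0.24 for all genes, and 1 of 9 tested genes was called.

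This was Mmp3, the matrix protease stromelysin, at 12.6 CPM and 0 in young and 321, 401, 459 and 895 CPM in old FBs. Its log2 fold change was 5.72 (SE 0.90, adjusted p = 0.0200 by edgeR), on 1 young UMI, and the pooled ratio of 71.2 had a counting interval of 12.8 to 2814. Within cluster 10 it stood at 14.02 CPM and 0 in young and 328, 337, 447 and 446 CPM in old FBs. The call was lost with DESeq2 (adjusted p = 0.0986), with filterByExpr, the stricter cell filter and thinning (adjusted p = 0.0709, 0.750 and 0.278 by edgeR), with the set of libraries that share barcodes as a covariate (adjusted p = 0.612 by edgeR) and without the library of 20 months, the young male or the young female (adjusted p = 0.114, 0.700 and 0.846 by edgeR). With a library left out the log2 fold change ran from 5.22 to 12.94, the upper end with 0 young UMIs. Cxcl1, a neutrophil chemokine of the same list, named after its values were seen, was at 1414 and 764 CPM in young and 665, 2369, 82.8 and 8.50 CPM in old FBs and was not called.

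Among the other listed genes with an unadjusted p under 0.05, the smallest adjusted p was 0.604 by edgeR. In airway cells, where Il1r1 was the pair nearest to a call, Cxcl5, a neutrophil chemokine (log2 fold change 2.66, SE 0.83), Lcn2, which encodes lipocalin 2 (3.14, SE 1.01), and Ikbkb, a kinase upstream of NF-kB (1.17, SE 0.46), had adjusted p = 0.767 by edgeR. The others were Casp4 in FBs (2.69, SE 1.11, on 1 young UMI), Txnip in B cells (1.36, SE 0.65, with 497 and 265 CPM at 27 and 28 months, where the class was nearly all plasma cells, and 124 CPM at 24 months against 115 and 69.1 CPM in young libraries), and Mmp3, Casp12, Ikbkb and Irak1 in SMCs. In young SMCs these last 4 genes had 0 UMIs, so that Mmp3 was at least 1.59-fold and Casp12 at least 1.93-fold higher in old SMCs at a floor of 3 UMIs over the young group, and no bound above 1 could be given for Ikbkb and Irak1.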

How the data were processed

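Droplet libraries of proximal PAs from 2 young and 4 old mice were used, with 1 mouse a library. The authors deposited unnormalized UMI counts for each gene and barcode. Per the submitters' processing notes and the paper, reads were trimmed with cutadapt and aligned and counted with STAR and STARsolo on GRCm38.p6, and their versions are not given in the sources used here. Barcodes were kept from 500 UMIs and 300 genes upward, with mitochondrial UMIs up to 20%. Doublets (212 of 15622 barcodes) were marked by library with scrublet in scanpy 1.11.5, or as the top share at 0.8% per 1000 barcodes where it marked under 0.5%, and were left out. Cells were clustered together, without the 10 genes and their listed pathway genes, on 2000 variable genes, 40 components and 15 neighbours (leidenalg 0.10.2, resolution 1) with no batch correction, and lymphoid and myeloid cells were clustered again. A cluster took the name of a type if over 40% of that type's markers, and at least 3, were raised. It kept no name if its 10 leading genes held more markers of another type, or none of its own at a low depth. Plasma cells were joined with B cells. Counts were summed per library and type.

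Sums were compared with edgeR 4.0.16 (TMM, robust quasi-likelihood F test) in R 4.3.3 over genes with a UMI in over 5% of the cells of 3 or more libraries. Sums per library were tested in place of the generalized linear mixed model of the study. This test was also run on simulated counts with the same dispersion for every gene, which cannot show how it behaves on these libraries. Single values used the two-sided exact permutation test over libraries. DESeq2 1.42.0, stricter cell filters, doublets or shared barcodes handled otherwise, thinning to 500 UMIs, types per cell, other gene filters, no TMM, a covariate for libraries that share barcodes and leaving out each library were alternatives. Python 3.11.15, numpy 2.4.6, scipy 1.17.1, pandas 2.3.3, anndata 0.12.19, scikit-learn 1.9.0 and matplotlib 3.10.9 were used. The 10 genes and the lists were chosen with earlier results of these data known. Text names all 10 genes, the 5 other listed genes of smallest unadjusted p under 0.05 in a type, and the 3 genes most like a member, and any other gene is said to be chosen after its values were seen or is the top type of a list. Differences between mice include technical spread between libraries. Gene identifiers of the files matched another annotation release, so promoter positions come from RefSeq and not from the files.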

Additional observations from a re-analysis of the deposited data

Results flagged for a closer look

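The 4 old libraries were examined for a single value far from the others in 49 pairs of gene and cell type, and 8 held one. No chance rate is set beside this count, because the values rest on unlike numbers of UMIs and the pairs share libraries. In T cells Il1r1 was at 957 CPM at 27 months, beside 133 CPM for the next library, from the subcluster with Il23r and Trdc. In perivascular MΦs Il1rn was at 224 CPM at 20 months, beside 8.44 CPM for the next, and in monocytes and dendritic cells Il1rn was at 125 CPM at 24 months, beside 11.5 CPM. Il33 in all kept cells was at 104 CPM at 28 months, beside 46.3 CPM for the next old library, and in airway epithelial cells it was at 8.81 CPM at 24 months, beside 1.46 CPM. Il1rap was at 47.3 CPM in airway epithelial cells at 28 months, beside 28.6 CPM, and at 80.5 CPM in T cells at 20 months, on 2 UMIs, beside 46.2 CPM. Casp1 in monocytes and dendritic cells was low at 16.4 CPM at 27 months, on 2 UMIs, beside 56.3 CPM.

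Il1rap took opposite directions in a pair of cell types, on few young UMIs in both. In B cells the old libraries all lay above the young pair, with a pooled ratio of old to young of 2.31 (counting interval 1.25 to 4.66). Of the genes that passed the filter in B cells 19.6% did so, but Il1rap was not among them. In FBs every old library lay below the young pair, as did 7.34% of all genes tested there. The FB ratio was 0.511 (counting interval 0.216 to 1.59), on 5 young UMIs. The young B cells held 12 Il1rap UMIs, all from the young male, and the 0 of the young female came from 23 cells. At 27 and 28 months the class lay mostly in the plasma cell cluster, which held 26.7 CPM of Il1rap against 8.68 CPM in cluster 2, the leading one in young libraries. The difference between the types was not tested.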

How the results depend on the processing

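None of the 10 genes was called between old and young libraries in any of 97 alternative fits, but not all of these could call one. In B cells none of the 10 passed the filter except with types per cell, filterByExpr and no gene filter. With thinning none passed it in airway cells, ECs and SMCs. Fits without a young library rest on 1 young library. Of all genes, edgeR called 0 in every type but FBs, where it called 3, and these counts moved with the setting. In FBs the count was 0 with at least 1000 UMIs and 500 genes, with thinning, with filterByExpr and with the covariate, 21 with no gene filter, and 0 to 2 with a library left out. In B cells it was 25 with filterByExpr, 15 with no filter, 5 without TMM and 0 to 121 with a library left out, the 121 without the library of 24 months. In SMCs it was 1 with types per cell, 2 with filterByExpr, 39 with no filter, 2 without TMM, 4 with DESeq2 and 0 to 177 with a library left out, the 177 without the library of 20 months and 5 without that of 27 or 28 months. No filter gave 167 in airway cells, 6 in ECs and 33 in perivascular MΦs, and DESeq2 gave 1, 1 and 2. Log2 fold changes that changed sign were all uncalled, and with a library left out they ran over the ranges given, in which values above 7 have 0 UMIs left in the young group. In perivascular MΦs they were Casp1 (-0.44 without the young male, to 2.23), Il1a (-1.29 to 0.29, 0.11 without 28 months, 1.06 with the covariate), Il1b (-1.91 to 0.61, 0.053 with types per cell) and Il1rap (-0.44 to 7.24, -0.28 without 24 months, -0.077 with the stricter filter). Elsewhere they were Il1r1 in FBs (-0.26 to 11.16, -0.44 with the stricter filter), and Il1rap in airway cells (-0.52 to 0.35, 0.24 with types per cell) and ECs (-0.045 to 7.73). In all kept cells the old minus young difference in CPM changed sign with a library left out for Il1a (-4.21 to 1.00), Il1b (-29.9 to 50.5, -9.12 without 24 months), Il1rn (-13.2 to 7.53), Il1rap (-17.2 to 4.93), Il18 (-9.94 to 4.50), Il33 (-74.8 to 37.9), Nlrp3 (-31.7 to 8.47) and Il1rl1 (-1.22 to 2.49, -0.493 without 28 months), and was -0.559 for Il1rl1 with shared barcodes removed. In each of these ranges the young libraries gave both ends but for Il1b in perivascular MΦs, whose lower end came without 20 months. The product of Il1b and Il1r1 from perivascular MΦs to FBs turned to -1.70 without logs, -0.195 with the stricter filter, -0.116 without the young female, -0.0323 without 20 months and -0.0292 without 24 months, and that of Il1rn and Il1r1 to -0.411, -0.0705, -0.0196 and -0.0193 for the first 4 of these. Without each library in turn these products ran from -0.116 to 0.117 and from -0.0196 to 0.0414. The causes were not tested. Few cells stood behind some values, with 24 and 34 SMCs and 90 and 29 FBs in young libraries and 3 SMCs at 24 months. No paired analysis was possible because the labels carry no replicate numbers that groups share.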
